A study of Mus musculus with 71 samples.

Results

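Chemokine receptors of lymphocytes and neutrophils are described here in mouse whole blood: Ccr1, Ccr6, Ccr7, Ccr9, Cxcr2, Cxcr3, Cxcr4, Cxcr5 and Cxcr6. The 9 members were taken by gene symbol from the deposited table of variance-stabilised values, which holds 10508 genes, and all 9 are in it. The study asked how antibodies against galectin-3 act in a mouse model of systemic sclerosis in which skin injections of hypochlorous acid (HOCl) drive oxidative stress and fibrosis. Blood RNA of 71 mice was sequenced after polyA selection and globin depletion. The animals were female Balb/c AnNRj mice, 6 weeks old at the start. The control group of 11 mice received saline, and the HOCl group of 12 mice received HOCl into the skin on 5 days a week for 6 weeks. Another 4 groups of 12 mice received HOCl together with D11, E07, D06 or BPR21. D11 and E07 are human IgG1 antibodies against galectin-3 with an engineered Fc part, given under the skin at 20 mg/kg every 5 days. What D06 and BPR21 are, their doses and the HOCl schedule of their mice are not given in the sources used here. The study's methods state that experimental and control groups were kept in separate cages, so that cage and group cannot be told apart, and no sample has a labelled sequencing batch. The characteristics of each sample list HOCl also for the control mice, so the groups were taken from the sample titles.

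Chemokine receptors are G protein-coupled receptors through which leukocytes follow gradients of small secreted proteins. Their pattern differs by cell type: CXCR2 and CCR1 guide neutrophils, CCR7 and CXCR5 guide T and B cells to their zones in lymphoid organs, and CXCR4 binds CXCL12 and holds progenitors and neutrophils in the bone marrow. In blood the receptor mRNA therefore depends both on which leukocytes circulate and on the state of those cells.

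The count table holds 11932855 to 15948972 counts per mouse, with a median of 13719277. The authors' variance-stabilised (vst) values, which are on a log2 scale, are present for 70 mice, since HOCl mouse 8 is missing from that table. Vst statistics of the HOCl group therefore rest on 11 mice, as do the limma fits of counts scaled to the total count (CPM). Other count statistics of this group rest on 12 mice. Size factors computed from the counts averaged 1.29 ± 0.259 (SD, n = 11) for controls, 0.936 ± 0.226 (n = 12) for the HOCl group and 1.28 ± 0.171 (n = 12) for E07. In the D11, D06 and BPR21 groups they averaged 0.973 ± 0.223, 0.874 ± 0.201 and 0.985 ± 0.226 (SD, n = 12 each). The total count thus relates differently to the bulk of genes in control and E07 blood than in the other groups. Fewer cells of a type and less RNA per cell cannot be told apart in bulk RNA.

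Per transcript length, Ccr7 was the most abundant member, with a median of 126 over the 71 mice, in CPM (counts scaled to the total count) per kilobase of exon. It encodes the receptor for CCL19 and CCL21 that brings naive T cells into lymph nodes, and lies on chromosome 11 from 99035022 to 99045911 of GRCm39 (ENSMUSG00000037944). Cxcr2, the receptor of neutrophils for CXCL1 and CXCL2, followed with 58.9 on the same scale (ENSMUSG00000026180, chromosome 1, 74193150 to 74200405). Cxcr4 had 46.3 (ENSMUSG00000045382, chromosome 1, 128515936 to 128520044). Ccr1, a receptor for CCL3 and CCL5, had 31.2 (ENSMUSG00000025804, chromosome 9, 123762161 to 123768734). Cxcr5, the CXCL13 receptor of B cells and follicular helper T cells, had 18.4 (ENSMUSG00000047880, chromosome 9, 44423083 to 44473174). The other 4 members were lower by this measure. Cxcr3, the receptor of effector T cells and NK cells for CXCL9 and CXCL10, had a median of 5.33 (ENSMUSG00000050232, chromosome X, 100775141 to 100777875). Cxcr6, which binds CXCL16, had 3.55 (ENSMUSG00000048521, chromosome 9, 123635534 to 123640825). Ccr6, the receptor for CCL20, had 2.15 (ENSMUSG00000040899, chromosome 17, 8454869 to 8475973). Ccr9, the receptor for CCL25 of gut-homing T cells, had 1.09 (ENSMUSG00000029530, chromosome 9, 123507181 to 123613395). With the length of the canonical transcript in place of all exons, a choice made after seeing the data, the order was the same and Ccr9 had 2.22, Ccr6 3.34 and Cxcr5 23.2.

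Precision differs along this order. Raw counts of Ccr7 ranged from 1082 to 5708 over the mice and those of Cxcr4 from 353 to 3853, while those of Ccr6 ranged from 6 to 234, Cxcr3 from 6 to 243, Cxcr6 from 15 to 305 and Ccr9 from 22 to 360. Ccr1, Ccr9 and Cxcr6 lie close together on chromosome 9. The exons of Ccr9 overlap those of Slc6a20a, whose median count was 0, and Cxcr6 lies on the opposite strand within Fyco1, whose median count was 522, without exon overlap. An exon of Cxcr5 overlaps one of Bcl9l on the opposite strand, whose median count was 383. The study's methods name a strand-specific library kit, but the strand setting of the counting step is not stated. The exons of Ccr6 and Ccr7 overlap long noncoding RNAs of the opposite strand that the count table does not hold.

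**Figure D1:**
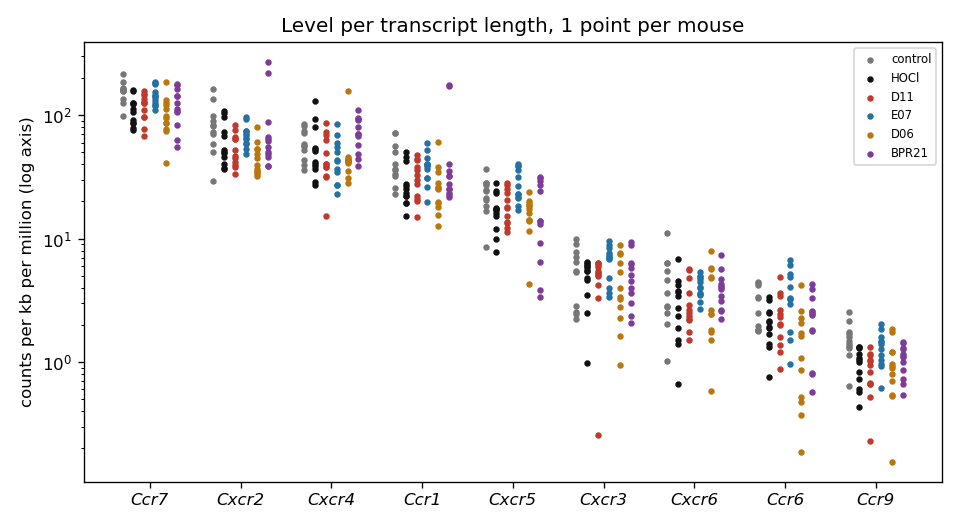
CPM per kilobase of exon on a log axis for each receptor, with 1 point per mouse (n = 71) coloured by group. Ccr7, Cxcr2, Cxcr4 and Ccr1 lie highest and Ccr9 lowest.

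Calls are by limma, with p adjusted over all 10508 genes by Benjamini-Hochberg, an upper limit of 0.05 on that p and a change of 1.3-fold or more in either direction. The comparison of HOCl with control blood asks what the model itself changes: limma called 0 of 9 members, where 4.96% of all genes were called, 0 of 9 had an unadjusted p under 0.05, and edgeR and DESeq2 called 0. E07 against HOCl asks what that antibody changes in the model, and there 1 of 9 members was called, Cxcr4, where 7.89% of all genes were. For D11 against HOCl, limma called 0 of 9 members and 0.0571% of all genes, for D06 against HOCl 0 of 9 and 0.133%, and for BPR21 against HOCl 0 of 9 and 0.638%. In each of these 3 comparisons 0 members had an unadjusted p under 0.05 and edgeR and DESeq2 called 0. Comparisons that share the HOCl or the control mice are not independent of each other.

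Treated groups were also set against saline controls, to ask how near to control each came. For E07 against control limma called 0 of 9 members and 0.00952% of all genes, with 1 member (Cxcr4) at an unadjusted p under 0.05 and 0 called by edgeR and DESeq2. D11 against control gave 0 of 9 members by limma and 0.0761% of all genes, with 1 member (Ccr9) at an unadjusted p under 0.05 and 0 by either count tool. D06 against control gave 0 of 9 members by limma and 7.88% of all genes, with 0 members at an unadjusted p under 0.05 and 0 by either count tool. BPR21 against control gave 0 of 9 members by limma and 0.504% of all genes, with 1 member (Cxcr4) at an unadjusted p under 0.05, 0 by edgeR and 1 by DESeq2.

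Direct tests between treatments called Cxcr4 alone by limma, in 2 of 6 comparisons. E07 against D06 gave 1 of 9 members and 9.76% of all genes, and E07 against BPR21 gave 1 of 9 members and 7.26%. E07 against D11 gave 0 of 9 members by limma and 4.57% of all genes, with 1 member (Cxcr4) at an unadjusted p under 0.05 and 0 by edgeR and DESeq2. For D11 against D06 limma called 0 of 9 members and 0% of all genes, with 655 of all genes and 0 members at an unadjusted p under 0.05, and edgeR and DESeq2 called 0 genes. D11 against BPR21 likewise gave 0 of 9 members by limma and 0% of all genes, with 621 of all genes and 3 members (Ccr9, Cxcr4 and Cxcr6) at an unadjusted p under 0.05, and edgeR called 0 genes and DESeq2 2, neither a member. D06 against BPR21 gave 0 of 9 members by limma and 0.0571% of all genes, with 1 member (Cxcr4) at an unadjusted p under 0.05 and 0 by edgeR and DESeq2.

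**Figure D2:**
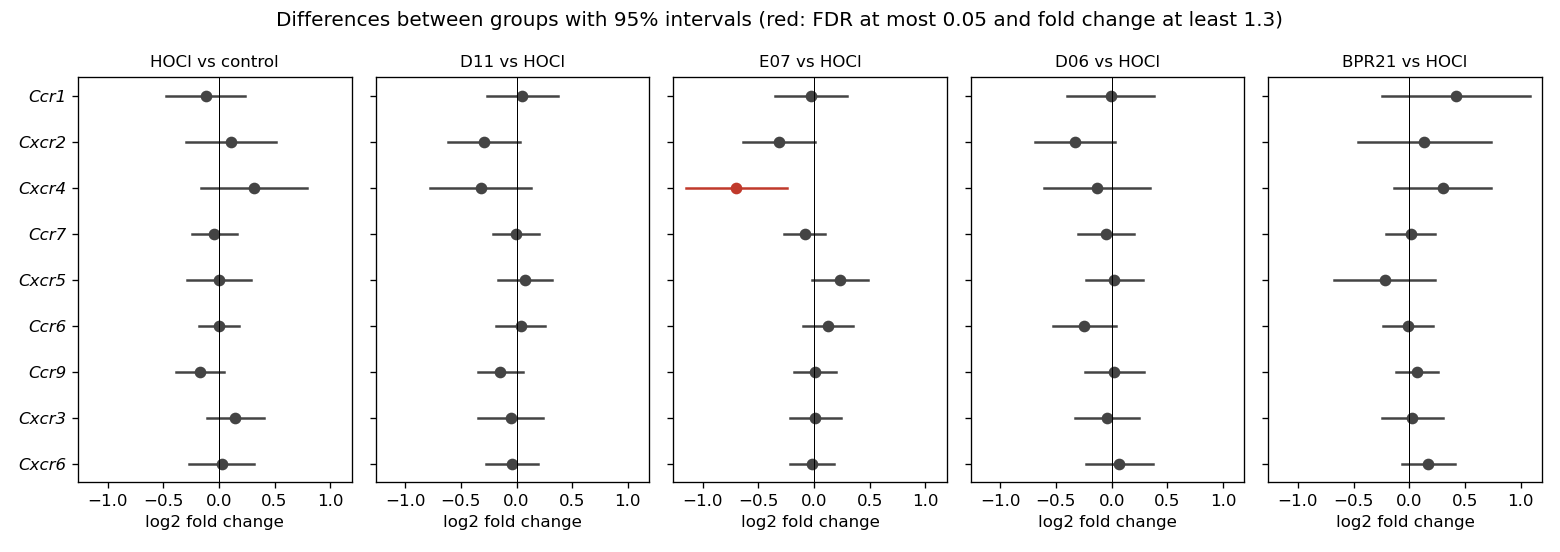
Log2 fold change (limma on vst values) with its 95% interval for each receptor in 5 comparisons, with called values in red. Only Cxcr4 in E07 against HOCl, at -0.70, is red, a call that is lost in log2 CPM of the total.

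The scale decides these counts for other members. In log2 CPM of the total count, the median of all genes shifted by -0.47 in HOCl against control, +0.49 in E07 against HOCl, -0.57 in D06 against control and +0.59 in E07 against D06. The shift was -0.36 in D11 against control, -0.38 in BPR21 against control, +0.39 in E07 against D11 and +0.41 in E07 against BPR21. On that scale 3 members (Ccr1, Ccr7 and Ccr9) were called lower in HOCl against control and 5 (Ccr1, Ccr6, Ccr7, Ccr9 and Cxcr5) higher in E07 against HOCl, where 52.0% and 65.5% of 10501 genes were called on the same scale. Relative to the shift of all genes, the HOCl changes of Ccr1, Ccr7 and Ccr9 were -0.14, -0.06 and -0.23. The E07 changes relative to the shift were -0.02 for Ccr1, 0.14 for Ccr6, -0.07 for Ccr7, -0.01 for Ccr9 and 0.27 for Cxcr5.

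Cxcr4 was lower in the blood of E07 mice than in HOCl, D06 or BPR21 blood. In E07 mice its vst value had a lowest of 9.26, a median of 9.87 and a highest of 10.74. In HOCl mice these were 9.73, 10.38 and 11.79. In control mice they were 9.64, 10.27 and 11.06. E07 mice 1 to 5 lay below every HOCl mouse, and of these mice 1, 2, 3 and 5 also below every control mouse, while the other E07 mice lay within both ranges. D11 mice had 9.50, 10.45 and 10.85 as lowest, median and highest. D06 mice had 10.01, 10.39 and 12.06, where the highest is mouse 1 and stands well above the others. BPR21 mice had 10.47, 10.92 and 11.66. Every BPR21 mouse was above the median of each of the other 5 groups, and the ranges of all 6 groups overlapped.

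By group mean Cxcr4 ordered as BPR21 (10.94 ± 0.38, SD, n = 12), HOCl (10.64 ± 0.71, n = 11), D06 (10.51 ± 0.54, n = 12), control (10.33 ± 0.49, n = 11), D11 (10.32 ± 0.45, n = 12) and E07 (9.94 ± 0.47, n = 12). No step between neighbours in this order was called by limma or exceeded the larger of the SDs of the groups it joins. The range of group means, 0.997, was nonetheless larger than the pooled SD within groups, 0.52. For the other members the range of group means was above the pooled SD in Ccr6 (0.37 against 0.31), Ccr9 (0.31 against 0.25) and Cxcr5 (0.46 against 0.41), and below it in Ccr1, Ccr7, Cxcr2, Cxcr3 and Cxcr6. For Cxcr5 it was below the pooled SD without BPR21 mice 7 and 11 (0.25 against 0.36), which are described below. Over all 9 members, 0 of 45 neighbour steps was called by limma or larger than the larger SD.

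In E07 against HOCl Cxcr4 changed by -0.70 on the log2 scale (SE 0.22, 95% interval -1.15 to -0.24, 0.616-fold, adjusted p = 0.0332), with 10 of 12 E07 mice below the HOCl median. edgeR gave -0.78 (adjusted p = 0.0241) and DESeq2 -0.82 (adjusted p = 0.0171). The call was lost without HOCl mouse 6, 7, 11 or 12 (adjusted p = 0.0679, 0.0568, 0.0612 and 0.0567) and without E07 mouse 1, 2, 3, 4, 5 or 10 (adjusted p = 0.0603, 0.0523, 0.0534, 0.0538, 0.0537 and 0.0508), with a log2 change between -0.79 and -0.58 over all 23 such refits. It was also lost with a mean-variance trend and robust variances (adjusted p = 0.0613) and in CPM of the total, where the change was -0.26 (adjusted p = 0.325), or -0.76 relative to the shift of all genes, against -0.72 relative to the median of all genes in vst values.

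E07 against BPR21 gave the largest difference of Cxcr4 among the 15 comparisons, -0.997 (SE 0.16, 95% interval -1.33 to -0.67, 0.501-fold, adjusted p = 0.00426), with 12 of 12 E07 mice below the BPR21 median. This call was kept in each of the 24 refits that leave out 1 mouse (-1.07 to -0.93, adjusted p between 0.00130 and 0.0126) and in CPM of the total (-0.68, adjusted p = 0.0144). E07 against D06 gave -0.57 (SE 0.19, 95% interval -0.95 to -0.19, adjusted p = 0.0342), with 10 of 12 E07 mice below the D06 median. That call was lost without D06 mouse 5 or 6 (adjusted p = 0.0510 and 0.0506) and without E07 mouse 1, 2, 3, 4, 5 or 10 (adjusted p = 0.0640, 0.0572, 0.0589, 0.0563, 0.0606 and 0.0527), and it was kept without D06 mouse 1 (-0.43, adjusted p = 0.0443). It was also lost with edgeR on all genes of at least 10 counts in at least 11 mice (-0.63, adjusted p = 0.0511), with a trend and robust variances (adjusted p = 0.0619) and in CPM of the total (-0.04, adjusted p = 0.862), where it was -0.64 relative to the shift of all genes. A block in limma for mice that share a number ended the call too (-0.57, adjusted p = 0.0674).

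Cxcr4 did not pass in the other 12 comparisons. HOCl against control gave 0.31 (SE 0.23, adjusted p = 0.523), with 8 of 11 HOCl mice above the control median, and in CPM of the total the sign turned (-0.15, or 0.32 relative to the shift of all genes). BPR21 against control gave 0.61 (SE 0.17, adjusted p = 0.0702) with 12 of 12 BPR21 mice above the control median, and DESeq2 called it (0.63, adjusted p = 0.0243). It was 0.27 in CPM of the total (adjusted p = 0.247), or 0.65 relative to the shift of all genes. With the replicate block in limma, Cxcr4 was called in BPR21 against control (0.65, adjusted p = 0.0121). D11 against BPR21 gave -0.62 (SE 0.16, adjusted p = 0.414), with 12 of 12 D11 mice below the BPR21 median. E07 against control gave -0.39 (SE 0.18, adjusted p = 0.639) and E07 against D11 -0.38 (SE 0.17, adjusted p = 0.194), so that these differences were not established at this group size. The latter was -0.03 in CPM of the total, or -0.42 relative to the shift of all genes. Within the summed counts per kilobase of the 9 receptors, Cxcr4 made up a median of 12.3% in E07 mice (8.03 to 20.5%), 14.1% in control mice (10.4 to 25.1%) and 16.1% in HOCl mice (11.0 to 34.0%). The median share was 16.8% in D11, 18.0% in D06 and 20.1% in BPR21 mice, and the ranges of all 6 groups overlapped.

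The promoter of Cxcr4 is shown because it is the member called, and those of Ccr1 and Cxcr2 because these receptors varied together over the mice. RefSeq promoters of build GRCm38.p6 were matched for 7 of 9 members (8 entries), and the 250 bases before the start are printed 5′ to 3′ on the strand of the gene. They are chr1:128592300-128592549 on the minus strand for Cxcr4, chr9:123968693-123968942 on the minus strand for Ccr1 and chr1:74153744-74153993 on the plus strand for Cxcr2. Capitals mark matches to 3 motifs that were searched for on both strands. The TATA box was searched as TATAAA. The letters of the GC box, to which Sp1 binds, were taken as GGGCGG. For the core bound by the myeloid factor PU.1 the letters were GAGGAA. A match on the other strand stands in the printed line as the reverse complement.
Cxcr4 promoter: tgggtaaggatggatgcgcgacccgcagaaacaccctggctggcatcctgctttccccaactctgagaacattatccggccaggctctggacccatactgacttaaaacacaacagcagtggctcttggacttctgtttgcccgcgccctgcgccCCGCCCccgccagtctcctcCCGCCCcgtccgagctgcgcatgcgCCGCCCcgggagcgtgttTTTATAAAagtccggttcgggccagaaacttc
Ccr1 promoter: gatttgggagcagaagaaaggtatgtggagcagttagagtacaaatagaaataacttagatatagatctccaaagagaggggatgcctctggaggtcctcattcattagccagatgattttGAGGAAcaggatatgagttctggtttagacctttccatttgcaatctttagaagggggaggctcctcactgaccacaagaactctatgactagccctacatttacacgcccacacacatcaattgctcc
Cxcr2 promoter: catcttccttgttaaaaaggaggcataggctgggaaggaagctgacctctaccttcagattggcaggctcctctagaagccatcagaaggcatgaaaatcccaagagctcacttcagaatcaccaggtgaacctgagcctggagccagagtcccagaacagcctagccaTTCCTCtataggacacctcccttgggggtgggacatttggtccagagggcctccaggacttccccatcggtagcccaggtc
The Cxcr4 window holds 2 overlapping matches to the TATA box, 1 on each strand, and 3 to the GC box, and the Ccr1 and Cxcr2 windows hold 1 match each to the PU.1 core. This core is not particular to them among the members. The windows of Cxcr3 and of 1 Ccr6 entry, which are not printed, also hold 1 match each. The other Ccr6 entry and the windows of Ccr9, Cxcr4 and Cxcr6 hold 0. Of 32851 promoter windows of the same length, 12.4% hold the TATA box, 32.7% the GC box and 23.3% the PU.1 core. A match is a description of letters and not of a bound site.

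Ccr1 and Cxcr2, the receptors of neutrophils, varied mostly between mice and not between groups. Cxcr2 vst values had a lowest of 10.69, a median of 11.33 and a highest of 12.43 in control mice, and 10.77, 11.69 and 12.48 in HOCl mice. In E07 mice they were 10.68, 11.20 and 11.59. In BPR21 mice they were 10.52, 11.36 and 13.88. These ranges overlapped throughout, and BPR21 mice 7 (13.23) and 11 (13.88) stood above every one of the other 68 mice, which ended at 12.48. The same BPR21 mice had the highest Ccr1 values, 12.80 and 13.19, while the other 68 mice ranged from 9.40 to 11.37. Ccr1 medians lay between 10.34 and 10.44 in all 6 groups.

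For Cxcr2, E07 against HOCl gave -0.32 (SE 0.16, adjusted p = 0.189), with 12 of 12 E07 mice below the HOCl median, and Ccr1 gave -0.03 (SE 0.16, adjusted p = 0.926). The sign of this Cxcr2 value turned in CPM of the total (0.18, adjusted p = 0.389), and it was -0.32 relative to the shift of all genes. D11 and D06 against HOCl gave -0.29 (adjusted p = 0.410) and -0.33 (adjusted p = 0.432) for Cxcr2, with 12 of 12 and 11 of 12 mice below the HOCl median. None of these 3 Cxcr2 values passed, and the HOCl mice they share as reference include the spread of 10.77 to 12.48. BPR21 mice 7 and 11 also had 2.05% and 1.39% of their counts in the list of 13 neutrophil markers, against 0.202 to 0.516% in the other 10 BPR21 mice. Their Cxcr5 values were low, 8.74 and 8.47, where the other 10 BPR21 mice had a lowest of 8.68 and a median of 10.01. Leaving both mice out, a choice made after seeing the data, changed the call of 0 of 45 member values in the 5 comparisons with BPR21.

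**Figure D3:**
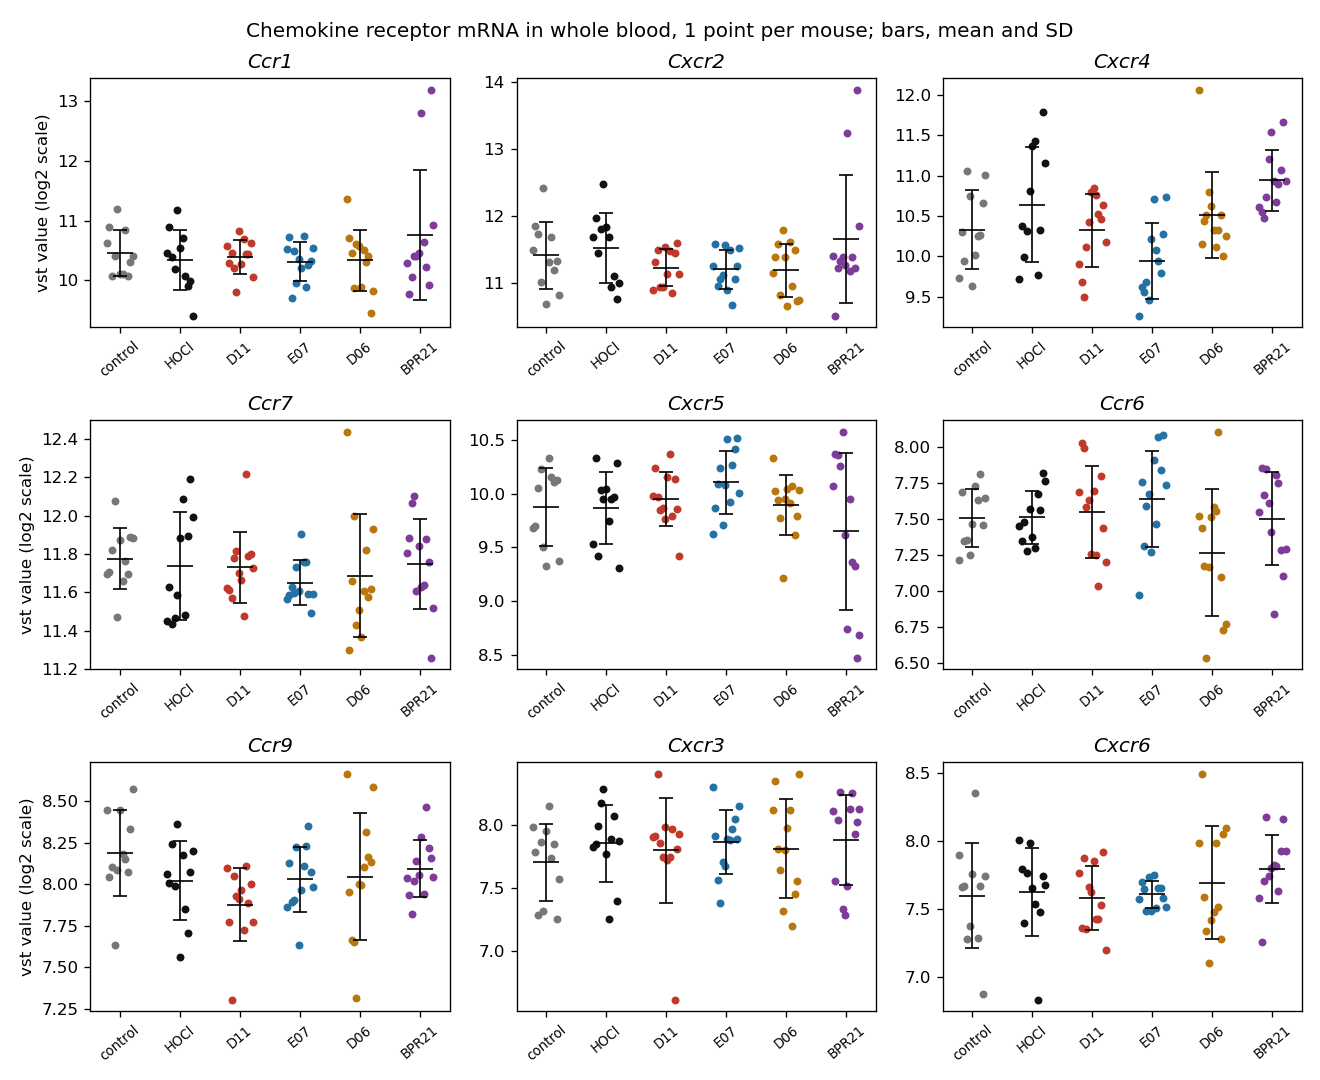
Vst values (log2 scale) of the 9 receptors in each mouse by group, with the mean and SD as bars (n = 11 or 12 per group). Cxcr4 is lowest in E07 mice, with a mean of 9.94, and BPR21 mice 7 and 11 stand out in Ccr1 and Cxcr2.

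Among the receptors of lymphocytes, Ccr7 group means ran from 11.65 ± 0.12 (SD, n = 12) in E07 mice to 11.78 ± 0.16 (n = 11) in control mice, and its values over all 70 mice from 11.26 to 12.44. Cxcr5 was highest by group mean in E07 mice, 10.10 ± 0.30 (n = 12), and lowest in BPR21 mice, 9.65 ± 0.73 (n = 12). E07 against BPR21 gave 0.46 for Cxcr5 (SE 0.21, adjusted p = 0.155), with 10 of 12 E07 mice above the BPR21 median. Without BPR21 mice 7 and 11 this difference was 0.25 (adjusted p = 0.413). E07 against HOCl gave 0.23 for Cxcr5 (SE 0.12, adjusted p = 0.212). Neither passed in vst values, the groups overlapped, and both were called higher in CPM of the total, at 0.55 and 0.27 relative to the shift of all genes.

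Ccr6 was lowest by group mean in D06 mice, 7.27 ± 0.44 (n = 12), and highest in E07 mice, 7.64 ± 0.34 (n = 12). E07 against D06 gave 0.37 (SE 0.15, adjusted p = 0.0861), with 10 of 12 E07 mice above the D06 median, and it was called without D06 mouse 9 (0.45, adjusted p = 0.0216) or E07 mouse 1 (0.43, adjusted p = 0.0390). Ccr6 was also called there in CPM of the total (1.19, adjusted p = 0.00124), at 0.60 relative to the shift of all genes. Ccr9 was highest in control mice, 8.19 ± 0.26 (n = 11), and lowest in D11 mice, 7.88 ± 0.22 (n = 12). D11 against control gave -0.31 (SE 0.10, adjusted p = 0.125), with 12 of 12 D11 mice below the control median, although the ranges overlapped. This was -0.82 in CPM of the total (adjusted p = 0.0581), or -0.46 relative to the shift of all genes. Cxcr3 group means lay between 7.70 ± 0.31 (n = 11) in control and 7.88 ± 0.36 (n = 12) in BPR21 mice, and D11 mice held its lowest value, 6.61. Cxcr6 group means lay between 7.58 ± 0.24 (n = 12) in D11 and 7.80 ± 0.25 (n = 12) in BPR21 mice. E07 against BPR21 gave -0.19 for Cxcr6 (SE 0.08, adjusted p = 0.125), with 12 of 12 E07 mice below the BPR21 median, and the sign turned in CPM of the total (0.06, or -0.35 relative to the shift of all genes). E07 mice had the smallest spread in Cxcr6, 7.48 to 7.75, of the 6 groups.

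Correlations were taken over 70 mice from vst deviations from each mouse's group mean, as descriptions, over the 36 pairs of members and the 72 pairs of a member with the mean of a marker list. Mice share library scaling and cell composition in these values. The r without 2 mice leaves out those farthest from the median of the receptor named first, so it depends on which of a pair comes first. Ccr1 and Cxcr2 had the highest correlation among the members (Pearson r = 0.863, Spearman rho = 0.774, and r = 0.760 without 2 mice). Ccr6 and Cxcr5 followed (r = 0.467, rho = 0.490, r without the 2 = 0.489), then Ccr7 and Cxcr4 (r = 0.405, rho = 0.290, 0.289 without the 2) and Cxcr3 and Cxcr6 (r = 0.402, rho = 0.363, 0.432 without the 2). The lowest was Ccr7 with Cxcr2 (r = -0.480, rho = -0.461, -0.523 without the 2).

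Against the marker lists, Cxcr5 ran with the 10 B cell genes (r = 0.883, rho = 0.868, 0.852 without the 2 farthest mice), and Ccr6 did so less closely (r = 0.490, rho = 0.518, 0.489 without the 2). Cxcr2 and Ccr1 ran with the 12 neutrophil genes (r = 0.783 and 0.795, rho = 0.754 and 0.721, 0.675 and 0.684 without the 2). With the 11 monocyte genes their values were lower (r = 0.590 and 0.444, rho = 0.575 and 0.423, 0.583 and 0.393 without the 2). Ccr7 and Ccr9 ran with the 12 T cell genes (r = 0.490 and 0.439, rho = 0.504 and 0.405, 0.487 and 0.407 without the 2). Cxcr2 and Ccr1 ran opposite to the T cell genes (r = -0.578 and -0.437, rho = -0.580 and -0.428, -0.573 and -0.399 without the 2). The value of Cxcr2 was the lowest of all pairs with a list. Cxcr2 was also negative with the B cell genes (r = -0.48, rho = -0.304, -0.269 without the 2). Cxcr3 had its highest value with the 8 NK cell genes (r = 0.321, rho = 0.234, 0.202 without the 2). Cxcr4 reached no r above 0.3 with any of the 8 lists, the highest being that with red cell precursor genes (r = 0.292, rho = 0.301, 0.319 without the 2).

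**Figure D4:**
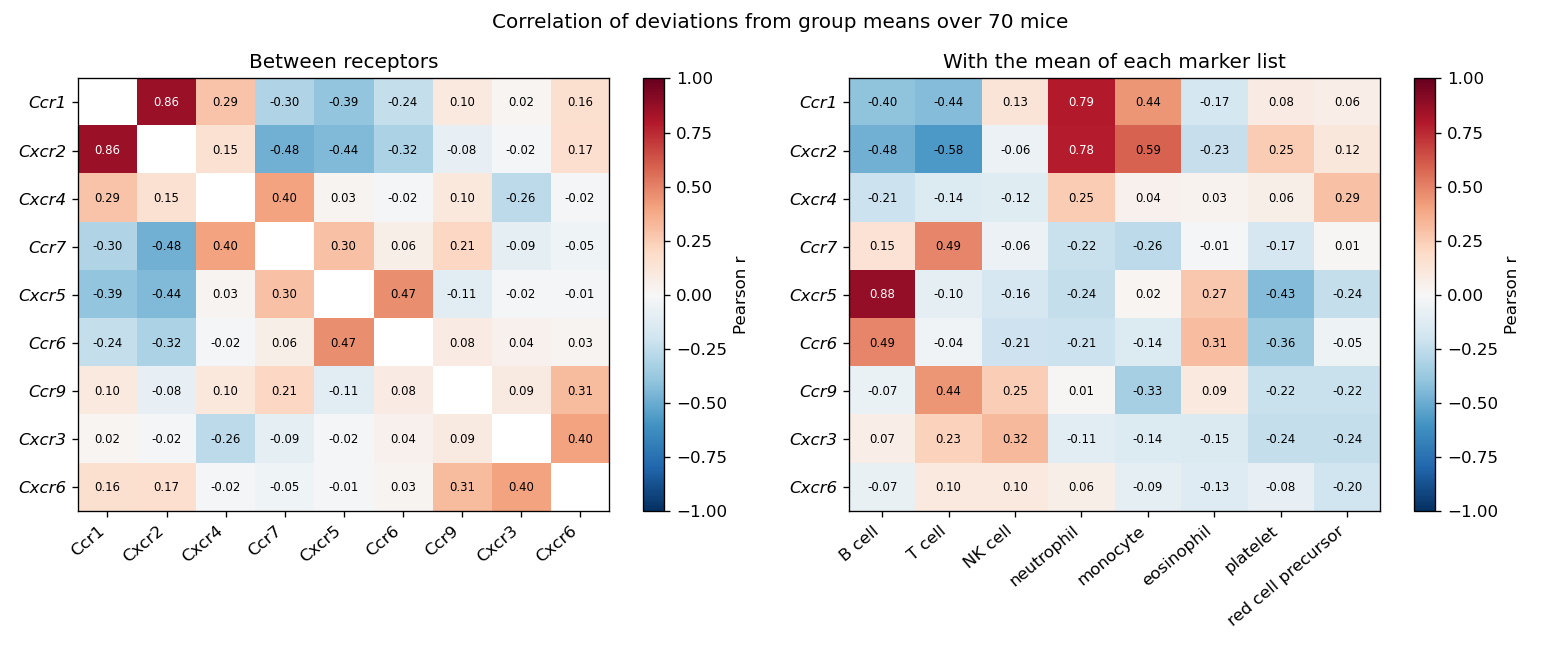
Pearson r of vst deviations from group means over 70 mice, between the 9 receptors and with the mean of each marker list, on a scale from -1 to 1. Cxcr5 is highest with the B cell list (0.883) and Ccr1 and Cxcr2 with the neutrophil list (0.795 and 0.783).

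For each member the 3 other genes with the highest Pearson r of the same deviations over 70 mice were listed. Cxcr4 was most like Tsc22d3, which encodes the glucocorticoid-induced leucine zipper protein (r = 0.873, rho = 0.845, 0.848 without the 2 farthest mice), then Sik1, a salt-inducible kinase (r = 0.747, rho = 0.650, 0.663 without the 2), and Dusp1, a phosphatase of MAP kinases (r = 0.729, rho = 0.710, 0.688 without the 2). Tsc22d3 vst values had a lowest of 10.72, a median of 10.95 and a highest of 11.66 in E07 mice, and 10.92, 11.76 and 12.82 in HOCl mice. E07 mice 1, 2, 3, 9 and 10 lay below every HOCl mouse for Tsc22d3, and the others lay within the HOCl range. In E07 against HOCl, Tsc22d3 changed by -0.80 on the log2 scale (adjusted p = 0.00659), Dusp1 by -1.09 (adjusted p = 0.00401) and Sik1 by -0.56 (adjusted p = 0.00460). In CPM of the total only Dusp1 was called there (-0.71, adjusted p = 0.0162), with Tsc22d3 at -0.33 (adjusted p = 0.150) and Sik1 at -0.38 (adjusted p = 0.0867). The median of all genes shifted by +0.49 on that scale, so each of these decreases was larger relative to that shift. Against D06 and BPR21, E07 mice were called lower in vst values for Tsc22d3 (-0.53 and -0.97) and Dusp1 (-0.81 and -0.99) but not for Sik1 (-0.31, adjusted p = 0.150, and -0.18, adjusted p = 0.302). Of these values only Tsc22d3 in E07 against BPR21 was called in CPM of the total (-0.59, adjusted p = 0.0207), and in E07 against D06 the sign turned for Tsc22d3 (0.04) and Sik1 (0.07), as it did for Sik1 in E07 against BPR21 (0.09). The median of all genes shifted there by +0.59 in E07 against D06 and +0.41 in E07 against BPR21. Each value whose sign turned lay below that shift. Sik1 did not follow the group order of Cxcr4, with a mean of 7.97 ± 0.35 (SD, n = 12) in BPR21 and 7.96 ± 0.27 (n = 11) in control mice.

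Genes most like the receptors of myeloid cells had high r. Cxcr2 was most like Gcnt2 (r = 0.935, rho = 0.859, 0.894 without the 2), Hp, which encodes haptoglobin (r = 0.919, rho = 0.853, 0.871 without the 2), and the Fc receptor gene Fcgr3 (r = 0.909, rho = 0.839, 0.844 without the 2). Ccr1 was most like Cd33 (r = 0.903, rho = 0.829, 0.809 without the 2), Clec4d (r = 0.876, rho = 0.757, 0.757 without the 2) and Cxcr2. Of these, Cd33 was called in E07 against HOCl (-0.44, adjusted p = 0.0398), a call that was lost in CPM of the total (0.01, adjusted p = 0.966, or -0.48 relative to the shift of all genes).

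Among receptors of lymphocytes, Cxcr5 was most like Cd74, the invariant chain of MHC class II (r = 0.929, rho = 0.914, 0.908 without the 2), Ighd, the IgD heavy chain (r = 0.894, rho = 0.850, 0.866 without the 2), and H2-Eb1 (r = 0.884, rho = 0.878, 0.853 without the 2). Ighd was called higher in E07 against HOCl (0.54, adjusted p = 0.00513). Ccr6 was most like H2-Ob (r = 0.596, rho = 0.620, 0.565 without the 2), Fchsd2 (r = 0.595, rho = 0.563, 0.561 without the 2) and Zfp318 (r = 0.584, rho = 0.589, 0.552 without the 2), and H2-Ob was called higher in E07 against HOCl (0.42, adjusted p = 0.0110). The remaining members had no gene with r above 0.6. Ccr7 was most like Rps4x (r = 0.586, rho = 0.526, 0.537 without the 2), Gpr171 (r = 0.558, rho = 0.346, 0.389 without the 2) and Cd3d, a chain of the T cell receptor complex (r = 0.524, rho = 0.494, 0.489 without the 2). Ccr9 was most like Ppp4r2, Dnttip2 and Trbc1 (r between 0.524 and 0.529, rho between 0.335 and 0.438, 0.434 to 0.521 without the 2). Cxcr3 was most like Zfp952, Ddx52 and Ikbke (r between 0.497 and 0.569, rho between 0.371 and 0.452, 0.323 to 0.411 without the 2). Cxcr6 was most like Sdhd, Cxcr3 and Dync1i2 (r between 0.399 and 0.450, rho between 0.363 and 0.423, 0.393 to 0.461 without the 2).

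**Figure D5:**
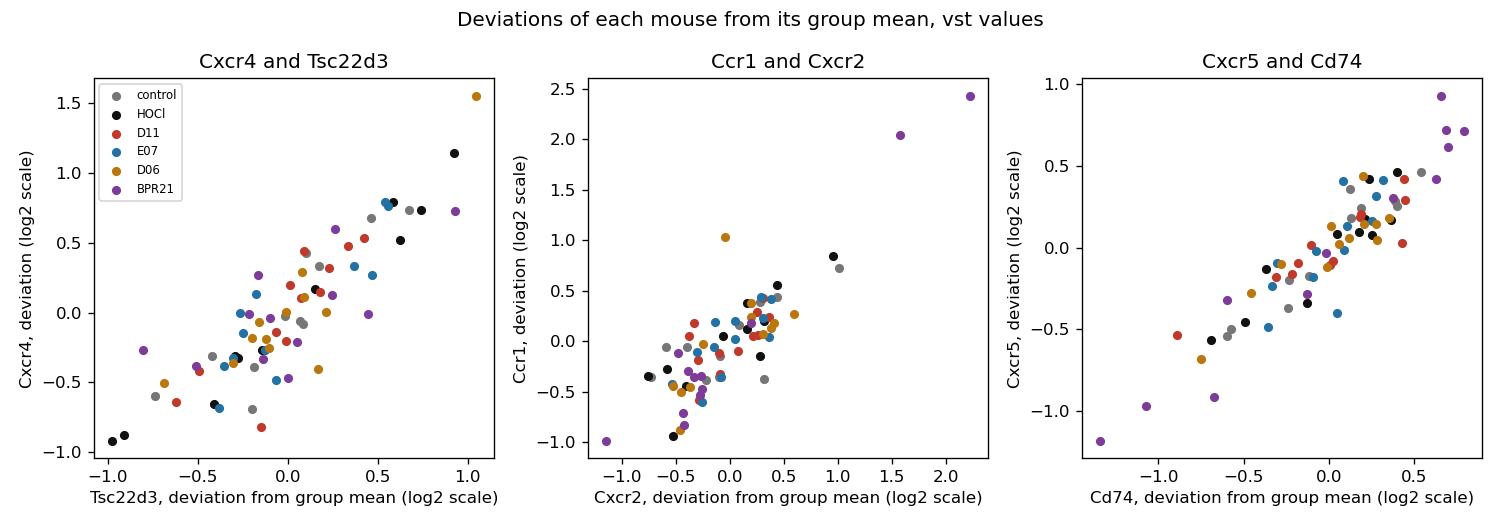
Each mouse's deviation from its group mean (vst, log2 scale) for Cxcr4 against Tsc22d3, Ccr1 against Cxcr2 and Cxcr5 against Cd74, coloured by group (n = 70 mice). Pearson r is 0.873, 0.863 and 0.929, and BPR21 mice 7 and 11 lie far up in the plot of Ccr1 and Cxcr2.

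Other chemokine receptors were measured for 8 of the 15 on a list drawn up for comparison. In HOCl against control limma called 0 of 8, with 3 at an unadjusted p under 0.05 and 0 by edgeR and DESeq2. Set against HOCl, E07 blood had 1 of 8 called higher, the eosinophil receptor Ccr3 (0.67, adjusted p = 0.00832), and 1 lower, Ackr1, the atypical receptor carried by red cells (-0.71, adjusted p = 0.00751). Ccr3 was called higher also in D11 against HOCl (0.90, adjusted p = 0.0423) and in D06 against HOCl (1.17, adjusted p = 0.0390). Cx3cr1, the fractalkine receptor of patrolling monocytes, was called lower in D06 against HOCl (-0.83, adjusted p = 0.0215) and in BPR21 against HOCl (-0.87, adjusted p = 0.00808), and was not called in E07 against HOCl. In D11, D06 and BPR21 against HOCl, 0 of all genes were called in CPM of the total, these receptors included. Ccr2, the receptor of classical monocytes, was called in BPR21 against control (-1.08, adjusted p = 0.0149), as was Cx3cr1 (-0.88, adjusted p = 0.0149), and its group means ran from 10.81 ± 0.70 (n = 12) in BPR21 to 11.89 ± 0.29 (n = 11) in control mice.

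Of 36 chemokine genes, 11 were measured, and in HOCl against control limma called 2 of 11 higher, the platelet chemokines Pf4 (0.61, adjusted p = 0.00786) and Ppbp (0.54, adjusted p = 0.0219). Both were called lower in E07 against HOCl (-0.48, adjusted p = 0.00389, and -0.53, adjusted p = 0.00644), the only ones of the 11. In CPM of the total neither was called, with 0 of 7 platelet genes called in either comparison. Of 28 measured genes of receptor signalling, 1 was called in HOCl against control and in E07 against HOCl, Arrb1, which encodes beta-arrestin 1, a protein that takes activated receptors from the surface. It changed by 0.67 with HOCl (adjusted p = 0.00146) and by -0.72 with E07 (adjusted p = 0.000117). In CPM of the total, 0 of the 28 were called higher and 14 lower in HOCl against control, and 20 higher and 0 lower in E07 against HOCl. On that scale 52.0% of all genes were called in HOCl against control and 65.5% in E07 against HOCl. Of 10 genes of egress and adhesion, limma called 0 in HOCl against control and 0 in E07 against HOCl, with 3 and 5 at an unadjusted p under 0.05 and 0 by edgeR and DESeq2 in each.

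Marker lists show which cells gave RNA to these samples, with sums as percent of all counts of a mouse. The 10 B cell genes, of which Cd79a was the most abundant per length, summed to a median of 0.124% in HOCl (0.0386 to 0.172%), 0.240% in E07 (0.147 to 0.311%) and 0.175% in control mice (0.0870 to 0.286%), and to 0.130%, 0.116% and 0.102% in D11, D06 and BPR21 mice. Of these, 8 of 10 were called higher in E07 against HOCl, with a median of 0.52, among them Tnfrsf13c (0.63), Ms4a1 (0.59), Cd79a (0.54) and Cd79b (0.53). The defining markers of B cells, T cells, NK cells, monocytes, platelets and red cell precursors were above 0 in every mouse. For HOCl against control limma called 0 of 10 B cell, 0 of 12 T cell, 0 of 8 NK cell, 0 of 11 monocyte and 0 of 4 eosinophil genes, with 1, 3, 5, 4 and 0 at an unadjusted p under 0.05. There edgeR called 0 in each of these lists, and DESeq2 called 1 NK cell gene lower and 1 monocyte gene higher.

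The 13 neutrophil genes, led by S100a9, summed to medians of 0.555% in control (0.205 to 1.25%), 0.466% in HOCl (0.318 to 0.734%), 0.442% in D11, 0.510% in E07 (0.390 to 0.812%), 0.377% in D06 and 0.381% in BPR21 mice. In 1 BPR21 mouse the defining neutrophil marker Ly6g was at 0, while the other, Csf3r, averaged 13.12 ± 0.67 (vst, SD, n = 12) in that group. Of 12 tested, 2 were called higher in HOCl against control, the granule genes Camp (0.95) and Ltf (0.92), and 3 lower in E07 against HOCl, Lcn2 (-0.92), Mmp8 (-0.84) and Ltf (-0.72). The median of the list, 0.42 in HOCl against control and -0.43 in E07 against HOCl, was -0.04 and 0.04 in CPM of the total, where 1 was called higher and 2 lower in E07 against HOCl. On that scale 65.5% of all genes were called in E07 against HOCl.

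The 15 red cell precursor genes, led by Alas2, summed to medians of 5.87% in control (2.82 to 8.46%), 9.59% in HOCl (6.65 to 13.9%), 7.07% in D11, 5.56% in E07 (3.98 to 7.68%), 7.64% in D06 and 7.30% in BPR21 mice. With HOCl 13 of 15 were called higher (median 1.34), among them Trim10 (1.95), Slc4a1 (1.80), Epb42 (1.70) and Sptb (1.63). In E07 against HOCl 14 of 15 were called lower (median -1.46), among them Slc4a1 (-2.03), Trim10 (-2.02), Sptb (-1.99) and Epb42 (-1.80). In CPM of the total 12 of the 15 were called in each comparison, in the same directions, where 52.0% and 65.5% of all genes were called. The part of these cells in the Cxcr4 differences was not tested.

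The 12 T cell genes, led by Trac, summed to medians of 0.214% in control, 0.149% in HOCl, 0.183% in D11, 0.218% in E07, 0.144% in D06 and 0.180% in BPR21 mice. In E07 against HOCl limma called 0 of 12, with 2 at an unadjusted p under 0.05 and 0 by edgeR and DESeq2, and BPR21 against HOCl gave 1 higher, Il7r (0.55), with 0 in CPM of the total. In CPM of the total, 12 of 12 were called lower in HOCl against control and 12 of 12 higher in E07 against HOCl, at -0.15 and 0.11 relative to the shift of all genes. Of all genes, 52.0% and 65.5% were called on that scale. The 8 NK cell genes, led by Gzma, had medians from 0.0234% in BPR21 to 0.0543% in control mice, with 0 of 8 called by limma in E07 against HOCl, 1 at an unadjusted p under 0.05 and 0 by edgeR and DESeq2.

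The 11 monocyte genes, led by Ccr2, had medians from 0.0606% in BPR21 to 0.119% in control mice. In E07 against HOCl 3 of 11 were called lower, F13a1 (-0.88), Cd14 (-0.59) and Csf1r (-0.50), and in BPR21 against HOCl 4 of 11, Cx3cr1 (-0.87), Ly6c2 (-0.68), Csf1r (-0.67) and Nr4a1 (-0.55), of which 0 were called in CPM of the total. In CPM of the total, 2 of the 11 were called higher and 0 lower in E07 against HOCl, where 65.5% of all genes were called. The 8 platelet genes, led by Ppbp, had medians from 0.364% in control to 0.463% in D06 mice, with 5 of 7 tested higher in HOCl against control, among them Gp9 (0.63), Itga2b (0.53) and Treml1 (0.48), and 7 of 7 lower in E07 against HOCl, with Gp5 (-0.58), Itga2b (-0.54), Gp9 (-0.53) and Treml1 (-0.52). In CPM of the total 0 of 7 platelet genes were called in either comparison. The 5 eosinophil genes, led by Ccr3, had medians from 0.00333% in HOCl to 0.00967% in D06 mice, with 2 of 4 tested higher in E07 against HOCl, Ccr3 and Il5ra (0.44). A defining eosinophil marker (Siglecf or Epx) was at 0 in 10 of 11 control, 12 of 12 HOCl, 11 of 12 D11, 7 of 12 E07, 11 of 12 D06 and 12 of 12 BPR21 mice. The part of these cell types in the receptor values was not tested.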

How the data were processed

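Whole-blood RNA of 71 mice was measured. The deposited raw counts are integer read counts per gene, which the authors made with cutadapt, STAR, SAMtools, Picard and featureCounts (versions not stated). The deposited vst values are variance-stabilised counts on a log2 scale, made by the authors with DESeq2, without HOCl mouse 8. No column lacked a sample (0 columns). Each comparison was fitted on its 2 groups with limma 3.58.1 in R 4.3.3 on the vst values of all 10508 genes, with Benjamini-Hochberg adjustment over all genes, and called where that p was no higher than 0.05 and the change 1.3-fold or more. All 9 members are in the vst table, so the edgeR route planned for absent members was not needed. Values in CPM per kilobase used exon lengths of GENCODE vM39 (GRCm39) and total counts. Promoters came from RefSeq. For correlations without 2 mice, those farthest from the median of the receptor named first were left out. Intervals cover 95%.

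Named genes were the members, genes called from fixed lists in HOCl against control or a treated group against HOCl (at most 5 per list, comparison and direction), Ccr2, Ccr3 and Cx3cr1, the most abundant gene and the defining markers of each cell type list, and the 3 genes most correlated with each member. Ccr2 and Cx3cr1 in BPR21 against control are given beyond this rule. Members and lists were chosen with earlier results of these data known. Alternatives were 1 fit over 6 groups, edgeR 4.0.16 (TMM, quasi-likelihood) with 4 gene sets, DESeq2 1.42.0, log2 CPM of the total with a pseudocount of 1, median-centred vst, a trend with robust variances, the adjusted p alone, a replicate block and leaving out mice. The fitting code was tested on simulated data. Python 3.11.15, numpy 2.4.6, pandas 2.3.3, scipy 1.17.1 and matplotlib 3.10.9 were used.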

Additional observations from a re-analysis of the deposited data

Results flagged for a closer look

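Cxcr4 differed between treatments when they were tested directly against each other. E07 against D06 gave -0.57 on the log2 scale (adjusted p = 0.0342 by limma, 10 of 12 E07 mice below the D06 median), and E07 against BPR21 gave -0.997 (adjusted p = 0.00426, 12 of 12 E07 mice below the BPR21 median). Both comparisons use the same E07 mice. The call against D06 was lost in 8 of 24 refits without 1 mouse and that against BPR21 in 0 of 24. The D06 call was lost also by limma in CPM of the total (-0.04, adjusted p = 0.862, or -0.64 relative to the shift of all genes). It did not pass by limma with a trend and robust variances (adjusted p = 0.0619) or a replicate block (adjusted p = 0.0674). With edgeR at 10 or more counts in 11 or more mice the adjusted p was 0.0511. No screen for single outlying samples was run, since all groups hold 11 or 12 mice.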

How the results depend on the processing

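Of 135 member values (9 members in 15 comparisons), none turned its call under 1 fit over 6 groups, edgeR on the vst genes, edgeR with filterByExpr or at least 1 count, median-centred vst or the adjusted p alone. In log2 CPM of the total, the members called numbered 3 in HOCl against control, 5 in E07 against HOCl, 6 in D06 against control, 2 in E07 against D11, 7 in E07 against D06 and 2 in E07 against BPR21, where 52.0%, 65.5%, 67.0%, 44.4%, 74.2% and 45.8% of all genes were called. There the direction reversed for Ccr1 (0.48) and Ccr7 (0.42) in E07 against HOCl, for Cxcr5 (-0.54) in D06 against control, and for Ccr1 (0.57), Ccr7 (0.56) and Ccr9 (0.52) in E07 against D06. Relative to the shift of all genes these 6 values lay between -0.07 and 0.03. A further 31 values changed sign there without being called on either scale. That scale also moves the median of all genes by up to 0.59, and the cause was not tested. With a trend and robust variances 0 members were called in E07 against HOCl and 0 in E07 against D06, and edgeR with at least 10 counts in at least 11 mice called 0 in E07 against D06. DESeq2 called 1 member, Cxcr4, in BPR21 against control. For these the cause was not tested.

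Mice that share a number had mean correlations between 0.000410 (D06 against BPR21) and 0.146 (E07 against control), but in no comparison was the correlation above 0.1 in every pair, so the samples were not treated as paired. With a replicate block, 1 member was called in BPR21 against control (Cxcr4, 0.65) and 0 in E07 against D06 (Cxcr4, -0.57, adjusted p = 0.0674), and the cause was not tested. Over 126 refits without 1 mouse, of which 66 were planned, members called ranged from 0 to 1 in E07 against HOCl, from 0 to 2 in E07 against D06 and from 1 to 1 in E07 against BPR21, and stayed at 0 in HOCl against control and, with only HOCl mice left out, in D11, D06 and BPR21 against HOCl. The refits without E07 or BPR21 mice and those without D06 mice, and those without BPR21 mice 7 and 11, were chosen after seeing the data. Ccr6, Ccr9, Cxcr3 and Cxcr6 rest on few counts per mouse, which limits what their comparisons can show.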
